A study of Mus musculus with 6 samples.

Results

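The phagocyte NADPH oxidase is the enzyme that gives macrophages, monocytes and neutrophils their oxidative burst. Its membrane core, flavocytochrome b558, pairs the catalytic subunit gp91phox (gene Cybb) with p22phox (Cyba). In a resting cell the core is idle, and it begins to pass electrons from NADPH to oxygen, making superoxide, when cytosolic subunits such as p47phox (Ncf1) and p40phox (Ncf4) and the small GTPase Rac2 join it. Nox4 is a relative of gp91phox that is found in non-phagocytic cells such as vascular cells, fibroblasts and cardiomyocytes, needs p22phox but no cytosolic subunit, and is regulated largely by its amount. In an infarct, phagocytes that enter the tissue are a known source of superoxide.

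The 6 genes described here are Cybb, Cyba, Ncf1, Ncf4 and Rac2 of the phagocyte enzyme and Nox4 as its non-phagocyte form. They were chosen by name for what they encode, out of 36047 genes in the joined table, with earlier results of these data known. All 6 passed the filter on low counts. Rac1 and 40 further genes of the pathway were read beside them.

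The tissue was the infarct area of hearts from C57BL6 mice, labelled as 12 weeks old, taken 48 h after ischemia/reperfusion, in which a coronary artery is tied off and reopened. The methods of the study describe the mice as female. LGK-974 blocks Porcupine, the enzyme that lipid-modifies Wnt proteins so that they can be secreted, and was given by mouth to 3 mice, while 3 mice received DMSO, its solvent. Every mouse had the injury, so an uninjured heart is not part of the comparison, and all cells of the tissue were read together. Fewer cells of a type and less RNA per cell cannot be told apart in such samples.

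The libraries held 41579787 to 80398211 estimated counts, of which 28.2 to 53.7% fell on mitochondrial genes. DMSO replicate 1 stood apart from the rest, with correlations of log2 CPM of 0.878 to 0.944 with the other libraries, against 0.961 to 0.987 among those. It also had counts on 99.3% of 1501 olfactory, vomeronasal and bitter taste receptor genes, at a median of 32.1 counts per kb, against 59.8 to 88.3% of the genes and 3.01 to 11.6 counts per kb in the other libraries. Values without that library are therefore given beside the results that it moved most. CPM is the estimated count per 1000000 counts of the library, scaled with the TMM factors of edgeR.

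The 5 genes of the phagocyte enzyme were higher with LGK-974 in every mouse than in any DMSO mouse, by 1.49-fold (Cyba) to 1.95-fold (Cybb) in mean CPM. The tests were less uniform than the values. By the quasi-likelihood test of edgeR, adjusted by Benjamini and Hochberg's method, 0 of 20094 genes (0%) had an adjusted p-value under 0.05, while limma-voom also called 0 and DESeq2 called 315. At an unadjusted p-value under 0.05, edgeR called 2699 genes, 6.26% of the tested genes being higher and 7.18% lower with LGK-974, and the 5 phagocyte genes were among those higher. All LGK-974 libraries lay above all DMSO libraries in 10.7% of tested genes and below in 7.27%. The median log2 fold change of the 5 genes was 0.68, against −0.13 over all tested genes.

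Cybb, the catalytic subunit, is a protein-coding gene of the minus strand at chrX:9435252-9487771 (build GRCm38, as for all genes below). It was expressed at 26.8, 25.1 and 34.0 CPM in LGK-974 replicates 1, 2 and 3 and at 15.0, 15.6 and 13.6 CPM in DMSO replicates 1, 2 and 3. The lowest LGK-974 mouse was thus well above the highest DMSO mouse, and DMSO replicate 1 lay between the other controls. The means were 28.6 ± 4.76 CPM (SD, n = 3) and 14.7 ± 1.03 (SD, n = 3). The log2 fold change was 0.96 with a standard error of 0.167 (edgeR, unadjusted p = 4.82e-04, adjusted p = 0.368), and Cybb stood at place 20 of the tested genes by p-value. DESeq2 called Cybb higher (adjusted p = 0.00477), as it did 0.985% of the genes it tested, and it was the only member that DESeq2 called. Without DMSO replicate 1 the log2 fold change was 0.99, and DESeq2's adjusted p was 0.00153.

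The bases before the Cybb start site are shown because Cybb was the member with the smallest p-value and because transcription of the phagocyte genes is a textbook case of control by the leukocyte factor PU.1. The stretch covers 250 bases ahead of the RefSeq start, chrX:9469325-9469574 on the minus strand of GRCm38.p6, and its capitals mark a CCAAT box, a motif known from the human promoter of this gene, 56 to 52 bases before the start.
Cybb promoter: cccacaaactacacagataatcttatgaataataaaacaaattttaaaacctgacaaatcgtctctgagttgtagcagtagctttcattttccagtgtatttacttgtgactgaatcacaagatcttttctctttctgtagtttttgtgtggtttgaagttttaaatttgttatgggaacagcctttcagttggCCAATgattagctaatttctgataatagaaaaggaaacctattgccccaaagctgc
GAGGAA, a longer form of the GGAA core that PU.1 and its relatives bind, was on either strand in 0 of the 4 members' windows that the table holds (Cybb, Cyba, Ncf1 and Nox4) and in 23.3% of 32851 windows of this length. GGAA itself, looked for after the values were seen and contained in GAGGAA, was on one strand or the other in all 4 of these windows and in 93.4% of all windows. CCAAT, looked for after the values were seen, was in the Cybb window alone among these 4 and in 33.8% of all windows. These letters describe the windows and no binding was measured.

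Cyba, the partner that stabilizes gp91phox and is also used by Nox4, is encoded at chr8:122424776-122432930 (minus strand). Its levels were 24.9, 20.7 and 26.5 CPM with LGK-974 and 12.0, 17.9 and 18.6 CPM with DMSO. The groups did not overlap, but the margin was narrow, and the lowest value was that of DMSO replicate 1. The means were 24.1 ± 2.99 and 16.1 ± 3.63 CPM (SD, n = 3 each). In edgeR's fit this was 0.58 ± 0.206 on the log2 scale (fold change ± standard error, unadjusted p = 0.0238), and 0.42 without DMSO replicate 1.

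Among the cytosolic subunits, Ncf1 encodes the organizer p47phox, which is phosphorylated on activation and carries the others to the membrane. The gene is encoded at chr5:134220053-134229625 (minus strand), and its exons overlap 408 bases of Gtf2ird2 on the other strand, so that reads of this stretch cannot be assigned with certainty. It was expressed at 20.3, 23.4 and 32.0 CPM with LGK-974 and at 15.8, 17.8 and 13.5 CPM with DMSO. The spread within the LGK-974 group was wide, and the lowest mouse of that group still exceeded the highest control. The means were 25.2 ± 6.05 and 15.7 ± 2.16 CPM (SD, n = 3 each). In edgeR's fit this was 0.68 ± 0.208 on the log2 scale (fold change ± standard error, unadjusted p = 0.0118).

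Ncf4 encodes p40phox, which binds a lipid of the phagosome membrane. It is encoded at chr15:78244801-78262580 (plus strand) and was expressed at 3.10, 3.99 and 6.67 CPM under LGK-974 and at 2.04, 2.15 and 3.07 CPM under DMSO. The highest control and the lowest treated mouse nearly met. The means were 4.59 ± 1.86 and 2.42 ± 0.567 CPM (SD, n = 3 each). In edgeR's fit this was 0.92 ± 0.372 on the log2 scale (fold change ± standard error, unadjusted p = 0.039). On protein-coding transcripts alone, which held 57.5 to 81.6% of its counts, the groups of Ncf4 overlapped and the log2 fold change was 0.84 (edgeR, unadjusted p = 0.0931). Without DMSO replicate 1 the gene sum gave 0.82 (edgeR, unadjusted p = 0.0577).

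Rac2 is the Rac GTPase of blood cells and the form that neutrophils use for the oxidase. It is encoded at chr15:78559167-78572783 (minus strand). Its levels were 13.1, 10.9 and 15.3 CPM with LGK-974 and 7.69, 9.35 and 7.49 CPM with DMSO. The groups did not overlap, and DMSO replicate 1 lay between the other controls. The means were 13.1 ± 2.18 and 8.18 ± 1.02 CPM (SD, n = 3 each). In edgeR's fit this was 0.68 ± 0.197 on the log2 scale (fold change ± standard error, unadjusted p = 0.0093). For Rac1, the Rac that nearly all cells express, the values were 120, 116 and 117 CPM with LGK-974 and 69.3, 109 and 111 CPM with DMSO, with a log2 fold change of 0.29 (edgeR, unadjusted p = 0.215). Its separation was large only against DMSO replicate 1, without which the log2 fold change was 0.11. Exons of Rac1 overlap those of Daglb over 2309 bases on the other strand.

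**Figure D1:**
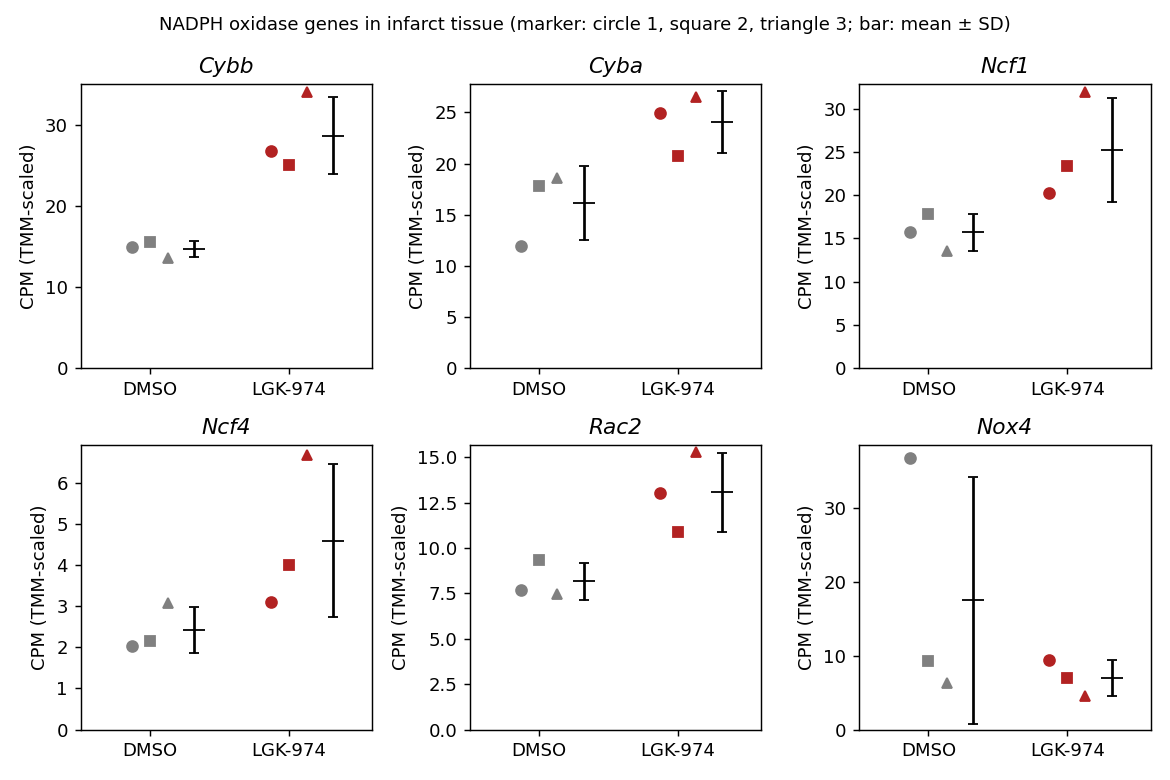
Estimated counts as TMM-scaled CPM (y axis from 0) of the 6 genes in each of the 3 DMSO (gray) and 3 LGK-974 (red) libraries, with the replicate number given by the marker shape and the mean ± SD as a bar beside the points. In Cybb, Cyba, Ncf1, Ncf4 and Rac2 every red point lies above every gray point, while in Nox4 DMSO replicate 1, at 36.8 CPM, lies far above the other 5 libraries, at 4.51 to 9.45 CPM.

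Nox4 did not follow the phagocyte genes. The gene is encoded at chr7:87246096-87398710 (plus strand). Its sum over all transcripts was 9.45, 6.94 and 4.51 CPM with LGK-974 and 36.8, 9.37 and 6.39 CPM with DMSO. The groups overlapped, since LGK-974 replicate 1 exceeded DMSO replicates 2 and 3, and the control mean was set by DMSO replicate 1. The means were 6.97 ± 2.47 and 17.5 ± 16.8 CPM (SD, n = 3 each). The fitted log2 fold change was −1.33 with a standard error of 0.633 (edgeR, unadjusted p = 0.0705, adjusted p = 0.371). Without DMSO replicate 1 it was −0.15 with a standard error of 0.322 (edgeR, unadjusted p = 0.653), less than the spread between the mice.

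Most of the Nox4 sum was not on transcripts that encode the enzyme. Nox4-204, annotated as a processed transcript without a protein, has 1159 bases in 3 exons and held 64.9 to 81.7% of the Nox4 CPM. It shares its start site with the coding transcript Nox4-201 and ends in an exon of 809 bases, chr7:87287173-87287981, that no coding Nox4 transcript has. The stretch below shows where it departs from the coding transcripts, with 60 bases of exon 2 (chr7:87247524-87247583) in lower case and the first 120 bases of the last exon (chr7:87287173-87287292) in capitals, on the plus strand of GRCm38.
Nox4-204: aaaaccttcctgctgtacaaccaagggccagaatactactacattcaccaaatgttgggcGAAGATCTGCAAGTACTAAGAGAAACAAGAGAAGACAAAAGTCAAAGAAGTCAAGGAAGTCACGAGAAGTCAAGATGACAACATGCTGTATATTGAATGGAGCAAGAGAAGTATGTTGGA
In this stretch 0 bases lay in a run of 31 bases that a transcript of another gene also contains. Further along the last exon, from base 688 of the transcript, such runs covered 228 bases and were shared with 17 other genes. Kallisto assigns reads by runs of this kind, and the length used by the authors was not stated, so 31 is the default of the program.

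On Nox4-204 the levels were 6.28, 4.90 and 3.37 CPM with LGK-974 and 30.1, 6.63 and 4.14 CPM with DMSO. Of the 17 genes with shared runs, 9 were tested, and 8 of these had their highest CPM in DMSO replicate 1, as did 40.3% of all tested genes. The exception was Tgfbr1. Whether shared runs contributed to the Nox4-204 counts was not tested.

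The protein-coding transcripts of Nox4 together held 0.141 to 1.36 CPM in the LGK-974 libraries and 0 to 2.69 CPM in the DMSO libraries, or 0 to 16.2% of the gene sum. These levels were too low and too scattered to compare. Their log2 fold change was −1.20 with a standard error of 1.55, and 0.25 without DMSO replicate 1. With only Nox4-204 taken out, so that the transcripts marked for nonsense-mediated decay stayed in, the values were 3.17, 2.05 and 1.14 CPM with LGK-974 and 6.71, 2.75 and 2.24 CPM with DMSO, which again overlapped (log2 fold change −0.87, standard error 0.543, edgeR, unadjusted p = 0.147). In contrast, coding transcripts held 95.1 to 99.6% of the counts of Cybb, 87.7 to 96.5% of Cyba, 89.9 to 97.0% of Ncf1 and 97.4 to 100% of Rac2. In the fit on coding transcripts 7.26% of genes were higher at an unadjusted p-value under 0.05, Cybb, Cyba, Ncf1 and Rac2 among them.

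**Figure D2:**
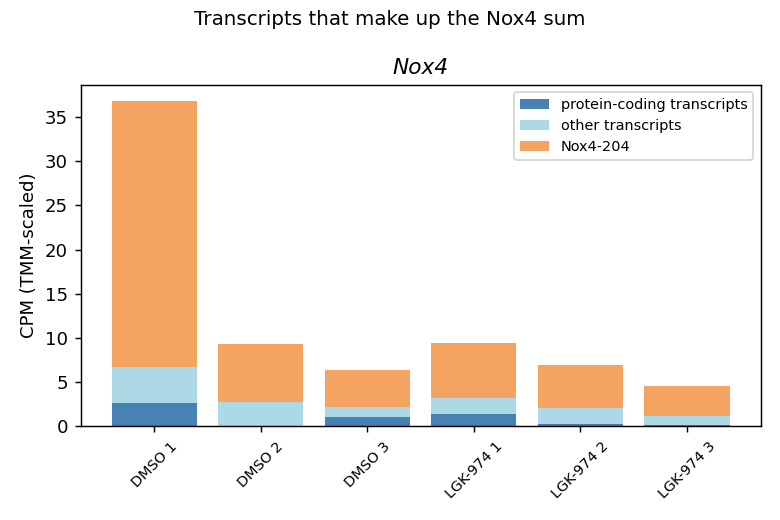
CPM (TMM-scaled, y axis from 0) of Nox4 in each library, stacked from the protein-coding transcripts (dark blue), the other transcripts (light blue) and the single transcript Nox4-204 (orange). The orange part makes DMSO replicate 1 the highest bar, at 30.1 CPM for Nox4-204, against 3.37 to 6.63 CPM in the other 5 libraries.

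Levels of different genes can be compared only per length, for which the TPM of the authors, summed per gene, was read. Under LGK-974 the SD was a larger share of the mean in TPM than in CPM for each of the 5 phagocyte genes. Cyba had the highest TPM of the 6 genes in 5 of 6 libraries, at a mean of 51.3 ± 26.4 TPM under LGK-974 and of 26.7 ± 10.1 TPM under DMSO (SD, n = 3 each). In DMSO replicate 1 Nox4 exceeded it, at 22.0 against 15.1 TPM. With LGK-974, Rac2 (16.9 ± 11.6), Ncf1 (14.7 ± 8.91), Cybb (8.41 ± 4.33), Ncf4 (7.35 ± 5.88) and Nox4 (6.07 ± 1.74) followed in mean TPM (SD, n = 3 each), and all neighbors in this order overlapped between libraries. With DMSO the order after Cyba was Nox4 (11.4 ± 9.30), Ncf1 (5.89 ± 1.67), Rac2 (5.04 ± 1.75), Cybb (4.25 ± 1.42) and Ncf4 (2.20 ± 0.416), where only Cybb and Ncf4 were separated. Ncf4 was the lowest of the 5 phagocyte genes in 5 of 6 libraries. Within each library Ncf1 exceeded Cybb, with ratios of 1.03 to 2.03, although their ranges across libraries overlapped. On this scale Ncf1, Ncf4 and Rac2 were separated between the groups, whereas Cybb and Cyba overlapped. The margin of Rac2 was narrow, with LGK-974 replicate 2 at 6.69 and DMSO replicate 3 at 6.52 TPM. The share of all genes or transcripts separated in TPM was not read, so these counts have no background beside them. The 390-base transcript Cybb-205, with 15.4 counts in each, held 30.7 and 25.9% of the Cybb TPM in DMSO replicates 1 and 2. It was at 0 in the other libraries. Of the 5 phagocyte genes, each read on its transcript with the most counts, only Cybb was separated. Its transcript Cybb-201 was at 5.53, 3.75 and 11.7 TPM with LGK-974 and at 1.99, 2.90 and 2.82 TPM with DMSO.

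The proportion of the 2 subunits of the membrane core overlapped between the groups. The ratio of Cybb to Cyba in TPM was 0.165 ± 0.0041 under LGK-974 and 0.18 ± 0.093 under DMSO (SD, n = 3 each, exact two-sided permutation test, p = 1). The ratio of Rac2 to Rac1, in TPM, was higher in each LGK-974 library, with 0.195, 0.127 and 0.254 in the LGK-974 libraries and 0.109, 0.0866 and 0.103 in the DMSO libraries. These groups did not overlap (exact two-sided permutation test, p = 0.1), and 0.1 is the smallest p that 3 mice against 3 can give. Much of the Rac2 TPM lay on Rac2-203, a transcript of 254 bases with 5.0 to 74.8 counts. It held 61.7 to 70.9% of the Rac2 TPM with LGK-974 and 30.4 to 52.2% with DMSO. On Rac2-201 alone the TPM overlapped, at 4.22, 2.57 and 7.74 with LGK-974 and 1.70, 2.91 and 2.34 with DMSO.

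Most marker genes of leukocytes and of macrophages were higher in the same libraries. All 8 pan-leukocyte markers had a positive log2 fold change, 7 of them at an unadjusted p-value under 0.05, and their summed level was 246 to 348 CPM with LGK-974 and 153 to 190 CPM with DMSO. The phosphatase Ptprc (CD45) had a log2 fold change of 0.79 and the tetraspanin Cd53 one of 1.07. Of 17 monocyte and macrophage markers 15 were positive and 10 had an unadjusted p-value under 0.05, with sums of 703 to 751 and 386 to 519 CPM. Over all tested genes 6.26% were higher at that limit. Among the macrophage markers Adgre1 (F4/80) had 0.88, Csf1r 0.78 and the lysozyme gene Lyz2 1.30 on the log2 scale. The 2 negative ones were Cd163 (−0.76) and Lyve1 (−0.17). Mertk had 0.11 and Cx3cr1 0.20, and the groups overlapped in each of these 4.

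Neutrophils are the other main user of this oxidase, but few of their RNAs were measured. Of 11 neutrophil markers 5 passed the filter on counts, and the defining genes Ly6g, Camp, Ngp, Ltf, Retnlg and Elane were at or near 0. The alarmins S100a8 and S100a9 were at 5.51 ± 2.13 and 3.97 ± 1.97 CPM (SD, n = 3 each) in the LGK-974 group and at 5.23 ± 0.625 and 3.44 ± 0.315 CPM in the DMSO group, which overlapped. The other tested markers went both ways. Cxcr2, a chemokine receptor of neutrophils, had a log2 fold change of −1.02 (edgeR, unadjusted p = 0.0459), and of −0.28 without DMSO replicate 1, where it was at 50.3 CPM. The collagenase gene Mmp8 had 1.02 (edgeR, unadjusted p = 0.091), and 1.63 without that library (edgeR, unadjusted p = 0.00464). The summed neutrophil level was 32.9 to 46.1 CPM with LGK-974 and 40.5, 44.8 and 81.2 CPM with DMSO, the last of these in DMSO replicate 1. T cell markers had a negative log2 fold change in 7 of 7 cases, none at an unadjusted p-value under 0.05, with a median of −1.14 and of −0.24 without DMSO replicate 1. Among 5 B cell markers 2 were positive, and 5 without DMSO replicate 1, with medians of −0.19 and 0.48. Of 9 fibroblast markers 9 were positive and 4 had an unadjusted p-value under 0.05, the 8 endothelial and 7 mural markers had medians of 0.03 and −0.03, and 9 of 11 cardiomyocyte markers were negative, with a median of −0.44.

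Set against the leukocyte markers, the phagocyte oxidase genes differed by small amounts in either direction, with overlapping groups. The mean log2 level of the 8 markers was 4.37, 4.24 and 4.84 with LGK-974 and 3.50, 3.90 and 3.64 with DMSO, a difference of 0.80 without overlap (exact two-sided permutation test, p = 0.1). Relative to it, Cybb differed by 0.13, Cyba by −0.22, Ncf1 by −0.15, Ncf4 by −0.04 and Rac2 by −0.16 on the log2 scale (exact two-sided permutation tests, p = 0.2 to 0.9), and the groups overlapped in each. Cybb relative to the markers was 0.40, 0.44 and 0.27 with LGK-974 and 0.46, 0.11 and 0.17 with DMSO. Its overlap came from DMSO replicate 1, without which the LGK-974 libraries lay above both controls and the difference was 0.23. Cyba then differed by −0.33, and its LGK-974 libraries lay below both controls. The margin was narrow, with LGK-974 replicate 1 at 0.302 and DMSO replicate 2 at 0.303. Without that DMSO library Ncf1 differed by −0.06, Ncf4 by −0.05 and Rac2 by −0.11, with overlapping groups. Against the 17 monocyte and macrophage markers, whose level differed by 0.61, Cybb was 0.32 higher without overlap (exact two-sided permutation test, p = 0.1), while the other 4 genes differed by −0.03 to 0.15 and overlapped. Nox4 relative to the leukocyte markers was lower in each LGK-974 mouse than in each control, by 1.73 on average and by 0.91 without DMSO replicate 1, and on its coding transcripts the groups overlapped. In other mice of the study, flow cytometry of whole hearts at the same time after injury counted fewer leukocytes and myeloid cells with LGK-974. Inflammatory monocytes were significantly fewer there, while macrophage and neutrophil numbers did not differ significantly. What part leukocyte numbers had in the levels of the oxidase genes was not tested.

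**Figure D3:**
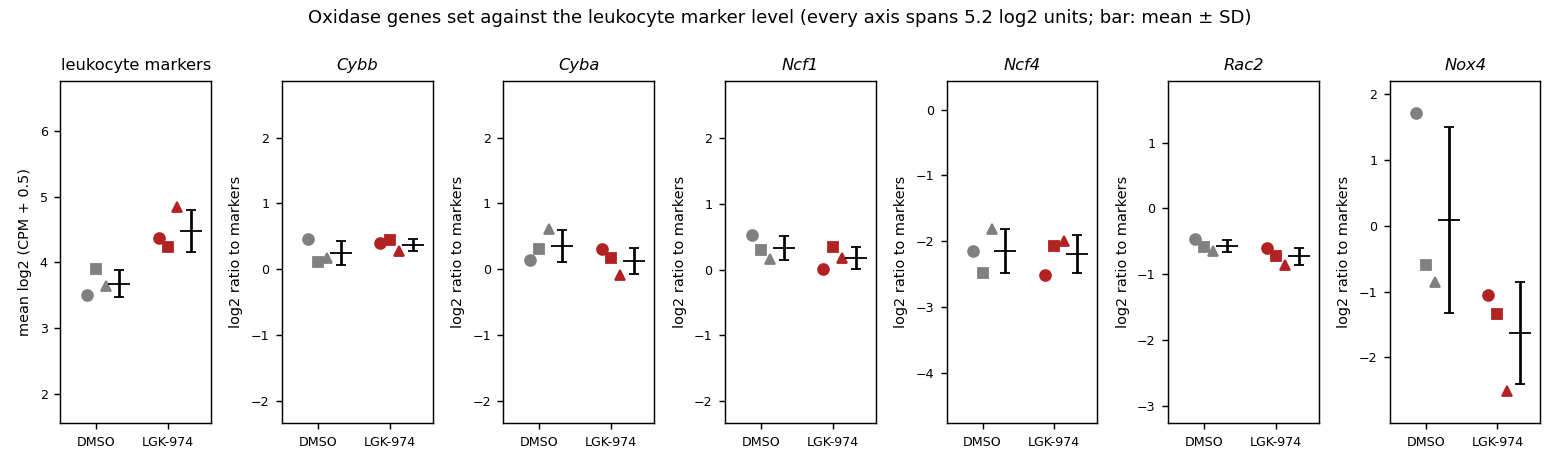
Mean log2(CPM + 0.5) of 8 leukocyte markers (left panel) and log2 ratio of each oxidase gene to that level (other panels) in DMSO (gray) and LGK-974 (red) libraries, with the replicate number as marker shape and the mean ± SD as a bar, every y axis spanning the same range. The marker level is 0.80 higher with LGK-974 without overlap, whereas the ratios of Cybb, Cyba, Ncf1, Ncf4 and Rac2 overlap between the groups and differ by −0.22 to 0.13.

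The rest of the pathway was read from 41 further genes, of which 38 passed the filter and 14 were higher and 0 lower at an unadjusted p-value under 0.05. Their median log2 fold change was 0.33, the groups were separated upward in 20 and downward in 0 of them, and 0 passed edgeR's adjusted threshold, while DESeq2 called 3. Over all tested genes, 6.26% were higher and 7.18% lower at that limit, and 10.7% were separated upward and 7.27% downward. DESeq2 called 0.985% of the genes it tested higher. Without DMSO replicate 1, where 7.12% of all genes were higher at an unadjusted p-value under 0.05, 16 pathway genes were higher and 0 lower at that limit. In the fit on coding transcripts 16 were higher, against 7.26% of all genes, and 3 were lower (Sod1, Sod2 and Cat). That fit had 2564 of 17179 genes at that limit in either direction. Each of the lists below was chosen by function and, like the marker lists above, with earlier results of these data known.

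Factors that act with the complex gave 1 gene at that limit out of 7. Hvcn1, the proton channel that offsets the charge the oxidase moves, was at 3.20, 3.32 and 4.07 CPM with LGK-974 and at 1.48, 0.993 and 1.62 CPM with DMSO. The groups were apart, with a log2 fold change of 1.37 (standard error 0.351, edgeR, unadjusted p = 0.00481), although its exons overlap 1574 bases of Tctn1 on the other strand. Cybc1, the chaperone that phagocytes need to make gp91phox, was at 5.53 ± 0.606 and 4.02 ± 0.855 CPM (SD, n = 3 each), with a log2 fold change of 0.46 (edgeR, unadjusted p = 0.112) and no overlap.

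The exchange factors and kinases that switch on Rac and phosphorylate the subunits made up the largest share. Of these 18 genes, 11 were higher at an unadjusted p-value under 0.05 (6.26% of all tested genes) and 14 separated upward (10.7%). Arhgdib, the inhibitor that holds Rac2 in the cytosol of blood cells, had the smallest p-value among them. Its levels were 25.9, 22.3 and 28.9 CPM with LGK-974 and 12.7, 15.4 and 14.3 CPM with DMSO. edgeR gave a log2 ratio of 0.87 with a standard error of 0.161 (unadjusted p = 7.41e-04, DESeq2 adjusted p = 0.0184), and its exons overlap 136 bases of Pde6h. The exchange factors Tiam1 and Vav3 had log2 fold changes of 0.87 and 0.59, and Dock2, the Rac exchange factor of leukocytes, had 0.80. Each of these was separated between the groups, and DESeq2 also called Tiam1 (adjusted p = 0.049).

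Among the other oxidases and their partners, Nox1, Nox3, Duox1 and Duox2 held at most 1.84 CPM, with the highest level of each in DMSO replicate 1. The adaptors Sh3pxd2a and Sh3pxd2b were at 50.4 to 96.6 and 22.1 to 51.7 CPM. The median log2 fold change of the 8 tested genes in this list was −0.62, and 0.53 over 7 genes without that library. Sh3pxd2b, an adaptor related to p47phox that organizes podosomes, was the list's only gene at an unadjusted p-value under 0.05, with 45.2, 40.2 and 51.7 CPM with LGK-974 and 22.1, 31.1 and 28.5 CPM with DMSO (log2 fold change 0.75, standard error 0.182, edgeR, unadjusted p = 0.00374).

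Among the enzymes that act on superoxide and peroxide, Sod3, the secreted superoxide dismutase of the vessel wall and matrix, was higher. It was at 89.8, 95.2 and 96.2 CPM with LGK-974 and at 47.8, 51.7 and 64.1 CPM with DMSO. edgeR gave a log2 ratio of 0.78 with a standard error of 0.167 (unadjusted p = 0.00175, DESeq2 adjusted p = 0.0121). The cytosolic Sod1, the mitochondrial Sod2 and catalase (Cat) had values of −0.34, −0.38 and −0.54 on the log2 scale, each with overlapping groups. In the fit on coding transcripts they had −0.42, −0.40 and −0.62 (edgeR, unadjusted p = 0.0476, 0.0454 and 0.0423), and the groups again overlapped. Mpo, the peroxidase of neutrophil granules, was at 1.22 ± 0.442 and 2.36 ± 2.21 CPM (SD, n = 3 each). DMSO replicate 1 held 4.90 CPM of it, against 0.909 and 1.28 CPM in the other controls, and the log2 fold change was −0.95 with that library and 0.19 without it.

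**Figure D4:**
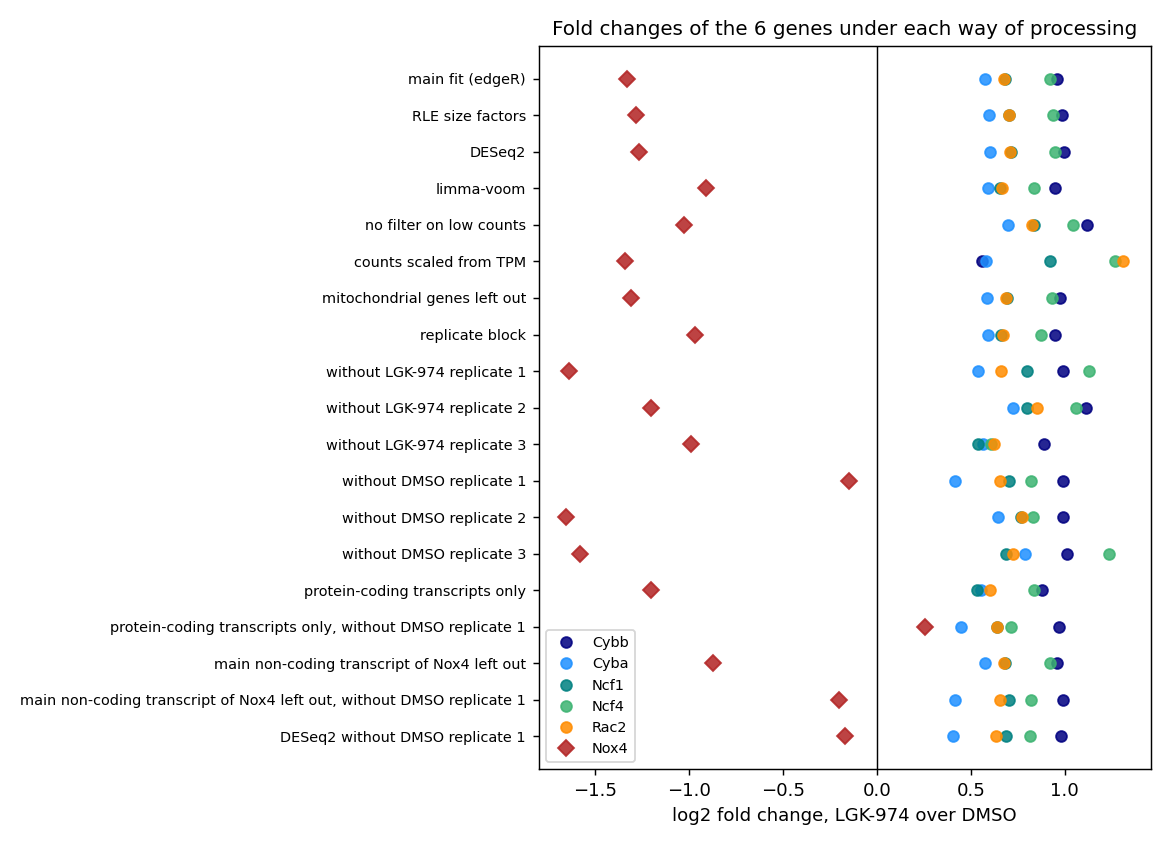
log2 fold change of LGK-974 over DMSO (x axis) for the 6 genes (colors, Nox4 as diamonds) under each way of processing (rows), with 0 marked by a line. The 5 phagocyte genes stay between 0.40 and 1.31 in the rows shown, while Nox4 runs from −1.65 to −0.15 with 1 mouse left out and to 0.25 on coding transcripts without DMSO replicate 1.

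Finally, the genes whose levels ran most like those of Cybb and Nox4 were sought among 7970 protein-coding genes with a mean of at least 10 CPM, by Pearson's r of log2(CPM + 0.5) over the 6 libraries, as a description. For Cybb these were Ascc3 (r = 0.998), Mlkl, Snrpd1, Cd63 and Ftl1-ps1 (r = 0.989). Among the members, Rac2 ranked 61 (r = 0.968), Ncf1 239 (r = 0.937), Cyba 1127 (r = 0.801) and Nox4 6305 (r = −0.505) in likeness to Cybb. For Nox4 they were Ift80 (r = 0.999), Zfp964, Rock1, Olfr734 and Sik2 (r = 0.997), each with its highest level in DMSO replicate 1. With that library left out, Ascc3 and Ift80 were the only ones of these 10 genes that stayed in the lists of 5.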

How the data were processed

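RNA sequencing of infarct tissue from 3 LGK-974 and 3 DMSO mice was analysed. The authors quantified reads with Kallisto on an index of GRCm38 transcripts and deposited 2 columns per library, estimated counts and TPM, over 118489 transcripts. The program's version is not given in the sources used here. Ribosomal depletion and a capture kit are both named in the labels. The deposited estimated counts were joined to genes through GENCODE M21 (98.6% of transcripts), summed and rounded, and the authors' TPM served for levels per length. A gene was tested if 3 or more libraries had 10 or more counts, with the quasi-likelihood test of edgeR 4.0.16 in R 4.3.3, TMM scaling and treatment as the single factor. Benjamini-Hochberg adjustment ran over all genes. DESeq2 1.42.0 and limma-voom (limma 3.58.1) were alternatives. These fits were tested on simulated data. Depth was 41579787 to 80398211 estimated counts per library, and the spread between mice limits the precision more than counting error does, except for genes under a few CPM. Single values were compared with exact two-sided permutation tests, and log2 ratios used a pseudocount of 0.5 CPM. Shared runs of 31 bases were counted between the annotated transcripts. Promoter windows came from RefSeq on GRCm38.p6. They were found for 4 of the 6 members. Other software was matplotlib 3.10.9, SciPy 1.17.1, pandas 2.3.3, NumPy 2.4.6 and Python 3.11.15.

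The members, pathway lists and marker lists were chosen with earlier results of these data known. The genes named are the 6 members, Rac1 and Cybc1, up to 4 genes per other pathway list with an unadjusted p-value under 0.05, the 5 most like Cybb and the 5 most like Nox4, and from each cell type list the first 2 and up to 2 with the smallest p-values. Cell types other than leukocytes, monocytes and macrophages and neutrophils are given by counts. Genes named with overlapping or shared sequence, the defining neutrophil genes, the oxidases of the low list and the peroxide enzymes were added after their values were seen. So were the monocyte and macrophage markers Cd163, Lyve1, Mertk, Cx3cr1, C1qc, Ccr2 and Ly6c2 and the TPM read on single transcripts. Some genes of the pathway are not reported here and were left out of its lists, while the fits across all genes kept them.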

Additional observations from a re-analysis of the deposited data

How the results depend on the processing

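The 5 phagocyte genes kept a positive log2 fold change under all 18 alternatives run for each, and Ncf1 and Rac2 also an unadjusted p-value under 0.05. That limit was missed by Cyba without LGK-974 replicate 1 or 3 (edgeR, unadjusted p = 0.0669 and 0.074) and by Ncf4 with limma-voom (unadjusted p = 0.087), on coding transcripts, in each fit without DMSO replicate 1, and without LGK-974 replicate 2 or 3 or DMSO replicate 2 (edgeR, unadjusted p = 0.0522, 0.156 and 0.109). With 1 mouse left out in turn, Cybb ranged from 0.89 to 1.11, Cyba from 0.42 to 0.79, Ncf1 from 0.54 to 0.80, Ncf4 from 0.61 to 1.24, Rac2 from 0.62 to 0.86 and Nox4 from −1.65 to −0.15. On counts scaled from TPM, Cybb gave 0.56 (edgeR, unadjusted p = 0.104) and Rac2 1.31. Cybb passed the adjusted threshold with DESeq2 (0.99), with DESeq2 without DMSO replicate 1 (0.98) and without a filter on low counts (1.12), and Nox4 passed without the filter (−1.03, adjusted p = 0.0212, edgeR). On coding transcripts without DMSO replicate 1, Nox4 turned to 0.25 (edgeR, unadjusted p = 0.869). The causes were not tested. Over all genes, the number with an adjusted p-value under 0.05 was 0 in the main analysis, 315 with DESeq2, 326 with DESeq2 without DMSO replicate 1, 1206 without the filter, 0 to 2 with 1 mouse left out, 1 on coding transcripts without DMSO replicate 1 and 2 with Nox4-204 and that library left out. The number with an unadjusted p-value under 0.05 was 4477 with DESeq2, 4790 without the filter and 821 to 4628 with 1 mouse left out, against 2699. Without the filter the median log2 fold change of all genes moved from −0.13 to −0.55, and with DESeq2 to −0.75. Fits on coding transcripts, with DMSO replicate 1 left out of DESeq2 or with Nox4-204 left out, were chosen after seeing the data.

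Replicate numbers occur in both groups, but the mice are different animals and same-numbered mice did not all deviate together (correlations of deviations of 0.487, −0.062 and 0.315). A fit with the number as a replicate block gave log2 fold changes of 0.95 for Cybb, 0.59 for Cyba, 0.66 for Ncf1, 0.87 for Ncf4, 0.67 for Rac2 and −0.97 for Nox4, with 0 genes past the adjusted and 3312 past the unadjusted threshold. With the block the unadjusted p of Nox4 was 0.0109, against 0.0705 without it. No adjusted call changed. Nox4 was also under 0.05 unadjusted with DESeq2 (unadjusted p = 0.0211) and without DMSO replicate 2 or 3 (edgeR, unadjusted p = 0.0462 and 0.0143).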
